A study of Mus musculus with 8 samples.

Results

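Mex3a deletion was examined in Ngn1-GFP positive cells of the mouse main olfactory epithelium, the labelled precursors and immature neurons of the sensory lineage. The comparison covers each gene with 20 or more counts in the pair of deletion and control columns. Of the 22553 genes in the table, 12554 had 20 or more ribosome footprints, 16564 had 20 or more input RNA counts, 12533 had both and 16585 had at least 1 of them. Controls carried a floxed Mex3a gene, fl/fl in the genotype tag and fl/fl or fl/+ in the sample description, with the Ngn1-GFP transgene and no Cre. Deletion mice were Mex3a fl/fl with a Cre driver and Ngn1-GFP. Cre was not expressed from the promoter of the GFP transgene, and the driver differs between the groups together with the Mex3a genotype. The OMP-GFP pair used beside it, of mature neurons, carried the same Mex3a alleles and driver with OMP-ires-GFP in the descriptions, while the genotype tag of its deletion group reads OMP-ires-Cre. The series has 4 groups and 8 footprint libraries, 4 of them from Ngn1-GFP cells. Each group had 2 footprint libraries in the labels and 1 column per assay in the table. The sources used here do not give how libraries became a column, the ages and sexes of the mice, or whether footprints and RNA came from the same cells. All differences below therefore compare 2 columns per assay, with no replicate check.

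MEX3A is an RNA-binding protein with KH domains, which hold RNA, and a RING finger, which is typical of ubiquitin ligases. Proteins of its family act on the stability and translation of bound mRNAs. Ribosome profiling sequences the stretches of mRNA protected by ribosomes, so the footprint ratio divided by the input RNA ratio describes a difference in ribosome load per transcript. In this epithelium basal cells produce precursors, these become immature and then mature sensory neurons, and each neuron settles on a single olfactory receptor gene. Sustentacular cells surround the neurons and carry detoxifying enzymes.

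Values are log2 of deletion over control, after scaling each column within its assay, and brackets give 95% counting intervals. A gene is called higher or lower at 2-fold or more with an interval that excludes no difference. In ratios a gene without counts in 1 column took 3 counts there. Reads copied by PCR are not independent molecules, so intervals cover counting error only. Bulk columns cannot tell apart fewer cells of a type and less RNA per cell. Footprint totals were 4456989 in the control and 3031489 in the deletion column, and RNA totals were 89327877 and 27786809.

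The promoters of 3 genes are shown because they stand for the poles of the footprint data: Cyp2a5 and Muc2, sustentacular genes lower in both assays, and Gfy, the neuronal gene with the most footprints. Sequences are from RefSeq, build GRCm38.p6, from 250 bases before to 50 bases after the start, with matches to TATAAA (the core of the TATA box, searched on both strands) or to TCCC and GGGA with 2 bases between them (the palindrome bound by Ebf factors of olfactory neurons) in capitals. They lie at chr7:26835089-26835388 on the plus strand, chr7:141690090-141690389 on the plus strand and chr7:45179548-45179847 on the minus strand.
Cyp2a5: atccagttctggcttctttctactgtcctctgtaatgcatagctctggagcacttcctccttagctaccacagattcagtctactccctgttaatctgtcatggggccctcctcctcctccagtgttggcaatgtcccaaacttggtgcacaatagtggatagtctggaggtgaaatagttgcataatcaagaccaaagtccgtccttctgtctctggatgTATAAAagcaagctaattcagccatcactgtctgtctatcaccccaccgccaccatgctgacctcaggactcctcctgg
Muc2: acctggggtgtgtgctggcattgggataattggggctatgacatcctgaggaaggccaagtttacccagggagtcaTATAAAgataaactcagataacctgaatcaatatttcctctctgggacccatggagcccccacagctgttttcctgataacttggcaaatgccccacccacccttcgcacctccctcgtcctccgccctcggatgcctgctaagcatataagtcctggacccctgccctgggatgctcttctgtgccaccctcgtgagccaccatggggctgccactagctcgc
Gfy: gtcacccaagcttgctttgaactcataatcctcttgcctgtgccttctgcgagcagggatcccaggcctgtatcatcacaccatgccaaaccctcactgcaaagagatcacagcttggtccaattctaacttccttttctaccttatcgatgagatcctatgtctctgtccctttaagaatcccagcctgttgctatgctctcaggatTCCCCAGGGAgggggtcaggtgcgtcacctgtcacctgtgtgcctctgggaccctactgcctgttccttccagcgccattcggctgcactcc

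The TATAAA match of Cyp2a5 begins at position -29 and that of Muc2 at position -174, and the palindrome match of Gfy begins at position -42, counted from the start. TATAAA occurs in 4473 of 32851 promoters in the table (13.6%), in 10 of 21 sustentacular, 1 of 23 mature neuron, 5 of 20 immature neuron and 384 of 930 receptor genes with a promoter there. The palindrome occurs in 297 promoters (0.904%) and in 2, 1, 1 and 5 genes of those lists. The shares of 13.6% and 0.904% count single promoters, while the list values count genes with a match in any of their promoters. The 2 are therefore not in the same unit. These matches describe the sequence only.

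Lineage markers were set against the label first. Neurog1, the proneural factor whose promoter names the transgene, had a scaled footprint level of 103 CPM in the control and 85.1 CPM in the deletion column, against 2.06 in the OMP-GFP control of mature neurons. Neurod1, a factor of neuronal commitment, had 222 and 204, against 10.9 there. Gap43, the growth cone protein of immature neurons, had 656 and 666, against 324. These markers set both Ngn1-GFP columns apart from the mature population. Omp, the olfactory marker protein of mature neurons, had 2559 and 2754 footprint CPM, close to the 2839 of the OMP-GFP control, so the mature marker is also abundant in both columns. Summed footprints of the mature neuron list were 52159 CPM in the control and 58774 in the deletion column. The immature neuron list had 15192 and 17156, and the globose basal and precursor list 2136 and 2443. Mature neuron genes thus held more footprints than either of these lists in both Ngn1-GFP columns.

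Mex3a itself had 437 footprints in the control and 28 in the deletion column, a ratio of -3.34 [-3.95, -2.79]. Its RNA had 9645 and 656 counts, a ratio of -2.25 [-2.37, -2.13]. The deleted gene is thus lower in the columns labelled as deletion. Y-linked genes, which follow the share of male cells, were lower in RNA: Kdm5d had -0.78, Uty -0.92, Ddx3y -0.86 and Eif2s3y -1.04. Their footprints lay at -0.13, -0.24, -0.74 and -0.42, and the part of sex in other differences was not tested.

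Across genes, most of the calls in ribosome footprints were made in footprints alone. Footprints of 815 of 12554 genes (6.49%) were called higher and of 1361 (10.8%) lower. RNA of 728 of 16564 genes (4.4%) was called higher and of 1971 (11.9%) lower. Footprints per RNA were called higher for 1007 of 12533 genes (8.03%) and lower for 1273 (10.2%). The medians over all genes were -0.002, 0.01 and -0.06. The scaling takes most genes as unchanged, so medians near 0 follow from it. A shift shared by all genes could not be seen. The count minimum sums raw counts of both columns, and the control column is the deeper one in both assays. A gene seen only in the control therefore enters at a lower scaled level than a gene seen only in the deletion column. The part of this in the larger number of lower calls was not tested. With 100 or more counts in the pair, 213 genes (2.44%) were higher and 439 (5.03%) lower in footprints, so most footprint calls rest on thinly counted genes. RNA calls at that count were 368 (2.53%) and 1317 (9.05%), and calls per RNA 306 (3.5%) and 434 (4.97%).

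Of the genes measured in both assays, 119 were higher in footprints and RNA and 250 were lower in both. Another 631 were higher and 1087 lower in footprints alone. Opposite calls were rare, with 56 genes higher in footprints and lower in RNA and 20 the other way. RNA lay within 0.32 of 0 on the log2 scale for 359 of the 806 genes with higher footprints (44.5%) and for 689 of the 1357 with lower footprints (50.8%). Of the 294 genes with higher RNA 40.5%, and of the 573 with lower RNA 43.6%, were called the same way in footprints.

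The agreement of the assays was described by both correlation measures. Over all 12533 genes Pearson's r of the ratios was 0.263 and Spearman's rho 0.194, as a description across genes, which are not replicates. Outside the genes that stood apart in control RNA, described further on, r was 0.20 between 20 and 50 footprints in the pair, 0.40 between 200 and 500, 0.57 between 1000 and 5000, and 0.81 for the 149 genes with 5000 or more. The SD of footprint ratios was 1.67 in the lowest of these bins and 0.41 in the bin from 1000 to 5000. Spearman's rho in those bins was 0.17, 0.17, 0.22 and 0.32, so the increase with counts in Pearson's r was not matched in the ranks below 5000 footprints.

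**Figure D1:**
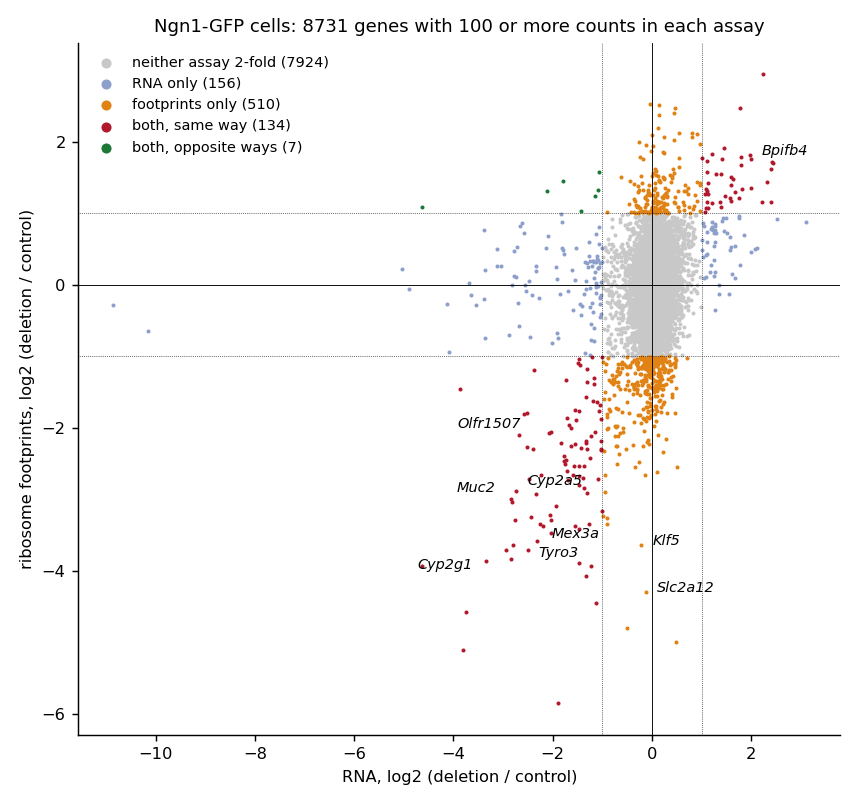
Each point is 1 of 8731 genes with 100 or more counts in each assay, placed by its RNA ratio (x) and its footprint ratio (y), both log2 of deletion over control; dotted lines mark 2-fold and colours mark which assay called the gene. Of these genes 7924 were called in neither assay, while 163 were higher and 347 lower in footprints alone.

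Of the 250 genes lower in both assays, 26 were in cell type lists and 40 were olfactory receptors. Receptors were 720 of the 12533 genes measured in both assays. Of the cell type lists, the sustentacular list had 28 members among these genes, gland 18, microvillar and ionocyte 12 and horizontal basal 14. The immune list had 10, ensheathing glia 9, vessel and mesenchyme 17, and epithelial junctions and keratins 37, and some genes stand in more than 1 list. Cyp2g1, an olfactory cytochrome P450, had 10521 and 468 footprints and 29709 and 950 RNA counts, ratios of -3.87 and -3.34. Cyp2a5, a P450 of nasal detoxification, had 2996 and 264 footprints and 25944 and 1262 RNA counts, ratios of -2.88 [-3.07, -2.70] and -2.73; its counts are uncertain because it has a near copy, Cyp2a4. For both enzymes footprints per RNA were closer to level than either assay, at -0.53 [-0.69, -0.37] and -0.15 [-0.35, 0.05].

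Muc2, a gel-forming mucin, had 986 and 80 footprints, with RNA of 4248 and 191 counts at -2.85, and the interval of its footprint ratio ran from -3.35 to -2.67. Tyro3, a receptor tyrosine kinase that recognises dying cells, had 421 and 21 footprints and an RNA ratio of -2.51, with -3.70 [-4.41, -3.07] in footprints and -1.20 [-1.85, -0.54] per RNA. Its footprint ratio was thus below its RNA ratio. Arhgap40, a predicted GTPase-activating protein, had 212 and 9 footprints, and Atp13a5, a P5-type transport ATPase, had 230 and 12. Their RNA ratios were -4.64 and -2.79, so both assays again lay far below the control.

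Sustentacular markers were lower as a list. Footprints of 19 of 28 measured members were lower and of 1 higher, beside 10.8% and 6.49% of all genes. Their summed footprints went from 11338 to 4492 CPM. The list medians were -2.11 in footprints, -1.31 in RNA and -0.54 per RNA, against -0.002, 0.01 and -0.06 over all genes. Gpx6, a glutathione peroxidase of the olfactory region, was the exception, with 105 and 209 footprints, a ratio of 1.62 [1.27, 1.97] and an RNA ratio of 2.40. Of the 30 listed genes, 1 had no footprint in the deletion column and none were at 0 in the control. The same list had a footprint median of 1.28 over 20 genes in the OMP-GFP pair, so the direction was opposite there.

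Other non-neuronal lists had calls in both directions in footprints, except the basal list. Over all genes 6.49% were called higher and 10.8% lower. Gland genes had summed footprints of 1643 and 1821 CPM, with 3 of 19 higher and 3 lower. Microvillar cell and ionocyte genes had 844 and 746, with 3 of 12 higher and 4 lower; the lower ones included Atp6v1b1, a subunit of the proton pump, with 313 and 19 footprints and a ratio of -3.42 [-4.17, -2.75]. Horizontal basal cell genes had 291 and 351 with 3 of 14 lower, immune genes 66.0 and 56.0 with 2 of 10 higher and 4 lower, ensheathing glia genes 218 and 309 with 3 of 9 higher and 3 lower, and vessel and mesenchyme genes 2602 and 2978 with 3 of 17 higher and 1 lower. In the deletion column 3 gland, 3 microvillar, 1 basal, 2 immune, 1 glial and 1 vessel or mesenchyme marker had no footprint, and in the control 3, 3, 0, 3, 2 and 0. Footprints per RNA had medians below 0 in these 6 lists, at -0.27, -0.87, -0.34, -0.82, -0.10 and -0.63 in the order given, against -0.06 over all genes. RNA lay above 0 for 12 of 20 gland, 14 of 18 microvillar, 13 of 14 basal, 7 of 20 immune, 7 of 14 glial and 15 of 20 vessel or mesenchyme genes. The share above 0 in RNA over all genes was 51.9%. Markers of other cells were thus present in both columns at unequal levels, and their part in the differences of other genes was not tested.

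Genes higher in both assays included Col14a1 and Bpifb4. Col14a1, a fibril-associated collagen, had 33 and 165 footprints and 315 and 482 RNA counts, ratios of 2.94 [2.40, 3.53] and 2.24 [2.04, 2.45]. Bpifb4, a secreted lipid-binding protein of nasal glands, had 509 and 1118 footprints, a ratio of 1.76 with RNA at 1.99. Per RNA they were at 0.70 [0.12, 1.28] and -0.23 [-0.41, -0.05], so most of each difference was in RNA as well.

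Hgf, the hepatocyte growth factor made by mesenchyme, had 18 and 56 footprints at 2.26 [1.47, 3.11] and RNA at 1.94. Acta2, the actin of smooth muscle, had 286 and 414 footprints at 1.16 [0.94, 1.38] and RNA at 2.21, and Tpm2, a muscle tropomyosin, had 97 and 202 at 1.68 and RNA at 1.79. Postn, the matrix protein periostin, had 384 and 553 footprints at 1.15 [0.96, 1.34] and RNA at 1.21. Inmt, an indolethylamine methyltransferase, had 135 and 288 footprints at 1.72 and RNA at 2.43. Of the 7 genes named here, Acta2 is in the vessel and mesenchyme list and Bpifb4 in the gland list, and none is in a neuronal list. Of the 119 genes higher in both assays 10 were members of the cell type lists and 17 were olfactory receptors, which were 720 of the 12533 genes measured in both. The members of each cell type list measured in both assays are given above.

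**Figure D2:**
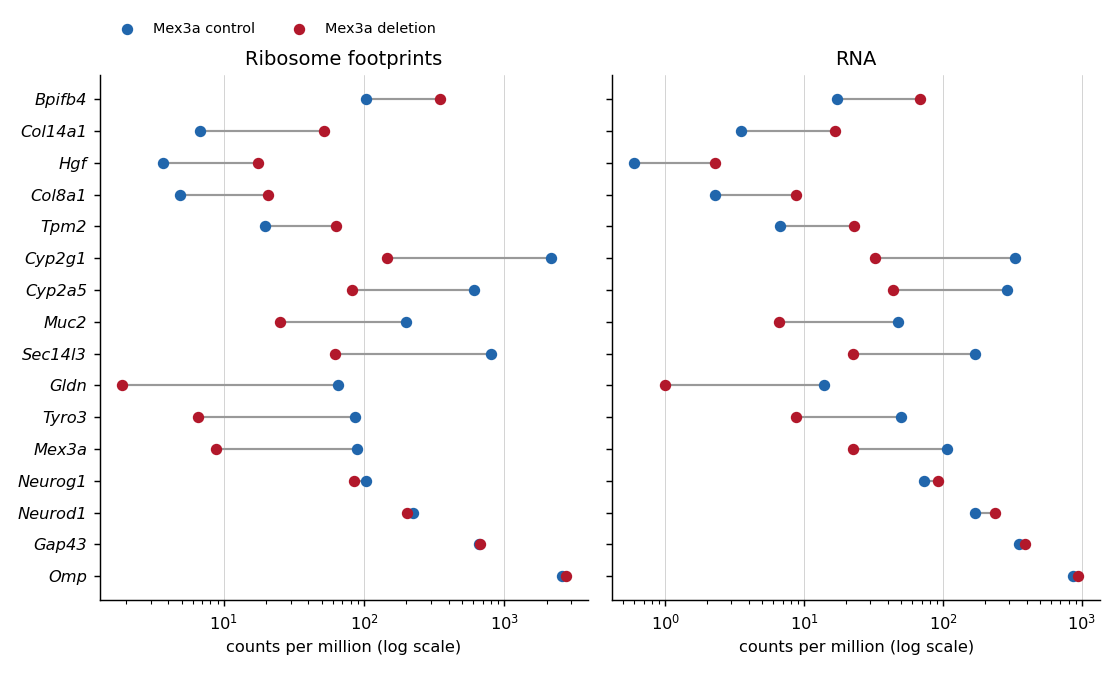
Scaled counts CPM (log axis) of 16 named genes in the control (blue) and deletion (red) column, footprints on the left and RNA on the right, 1 value per column and no error bars. The first 5 genes are higher and the next 7 lower in the deletion column in both assays, while Neurog1, Neurod1, Gap43 and Omp lie close together.

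Neuronal lists lay near the median of all genes in footprints. Of 29 immature neuron genes 0 were called higher and 1 lower in footprints, with medians of 0.04 in footprints and 0.27 in RNA. The lower one was Nhlh2, a neuronal helix-loop-helix factor, with 110 and 35 footprints at -1.03 [-1.62, -0.47] and RNA at 0.72. Of 34 mature neuron genes 4 were lower, beside 10.8% of all genes and 5.03% of those with 100 or more footprints. The list medians were 0.14 in footprints and 0.18 in RNA. Among the 4, Cyb5a, the cytochrome b5 electron donor, had 581 and 113 footprints at -1.74 [-2.04, -1.45] and RNA at -0.18. Of 22 globose basal and precursor genes 1 was higher and 3 lower, with a median of 0.01. At RNA level these 3 lists had no member called higher, and only the precursor list, with 4 of 25, had members called lower. Over all genes 4.4% were higher and 11.9% lower in RNA.

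Among the precursor genes with lower footprints, Pax6, a regulator of olfactory progenitors, had 96 and 13 footprints at -2.26 [-3.22, -1.42] with RNA of 1589 and 450 counts at -0.19. Lgr5, a Wnt-linked receptor of globose basal cells, had 74 and 5 footprints at -3.27 [-4.93, -1.98] with RNA of 140 and 46 counts at 0.02. In both genes the RNA ratio lay near 0 while the footprints were several-fold lower. The cell division list had 6 of 47 higher and 4 lower, beside 6.49% and 10.8% of all genes. Its median was 0.22, with 31 of 47 members above 0, against 49.8% of all genes.

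Lower footprints beside RNA within 0.32 of 0 were also found in Slc2a12, Klf5 and Itgb8, which are examples from the 689 such genes. Slc2a12, a glucose transporter, had 121 and 4 footprints at -4.30 [-6.20, -2.90] and 611 and 181 RNA counts at -0.13. Klf5, an epithelial transcription factor, had 154 and 8 footprints at -3.64 [-4.88, -2.63] and RNA of 1682 and 469 counts at -0.21. Itgb8, an integrin subunit that activates TGF-beta, had 63 and 2 footprints at -4.35 and RNA at 0.23. Per RNA the 3 genes were at -4.17 [-5.63, -2.71], -3.43 [-4.47, -2.40] and -4.58 [-6.62, -2.54].

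Notch and Wnt signalling genes were lower in footprints for 10 of 38 members and higher for 3, beside 10.8% and 6.49% of all genes, with a median of -0.27 and an RNA median of 0.05. Notch2, a receptor of supporting cells that also stands in the sustentacular list, had 275 and 24 footprints at -2.90 [-3.56, -2.29] and RNA at -0.95, whereas Notch1, the receptor of progenitors, had 113 and 134 footprints at 0.87 [0.50, 1.24] and RNA at 0.57. The related receptors thus lay on opposite sides of 0. Epithelial junction and keratin genes were lower for 9 of 37 and higher for 1, with a median of -0.25 and RNA at -0.12. Dsp, the desmosome plaque protein, was above 0 with 403 and 443 footprints at 0.76 [0.56, 0.96].

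Several genes showed the reverse, with higher footprints over level RNA, at low counts. Arntl2, a clock factor, had 1 and 32 footprints at 5.62 [3.04, 10.97] with RNA of 368 and 121 counts at 0.02. Dnajc27, a J-domain protein, had 1 and 22 footprints with RNA of 2003 and 656 counts at 0.02. Slco5a1, an organic anion transporter, had 2 and 34 footprints at 4.71 and RNA at 0.18. Each of these rests on 1 or 2 footprints in the control column. Opposite calls included Ccnd2, the G1 cyclin D2, with 44 and 1 footprints at -4.84 [-10.17, -2.28] and RNA of 153 and 129 counts at 1.38 [1.03, 1.73].

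Post-transcriptional regulators and the translation machinery were read against the 6.49% higher and 10.8% lower of all genes. At 100 or more footprints those shares were 2.44% and 5.03%. Of 24 genes of the Mex3 family and other KH domain regulators 0 were higher and 2 lower, Mex3a among them; Hdlbp, the vigilin RNA-binding protein, had 6211 and 4826 footprints at 0.26 and RNA at 0.19. Deadenylation and silencing genes had 0 of 45 higher and 2 lower with a median of 0.08, among them Zfp36l1, which directs decay of AU-rich mRNAs, with 280 and 48 footprints at -1.92 [-2.40, -1.48] and RNA at -0.36. Neuronal RNA-binding proteins had 0 of 34 called either way. Translation factors had 3 of 67 higher and 1 lower, and cytosolic ribosomal proteins 3 of 44 higher and 7 lower. In RNA 38 of 82 cytosolic ribosomal protein genes were lower, beside 11.9% of all genes in RNA. Footprint calls were 0 of 23 for tRNA synthetases, 1 of 35 each way for proteasome subunits and 0 of 31 for spliceosome genes.

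Genes of receptor choice and folding had 0 of 29 called in footprints, with a median of 0.10. Atf5, the factor that carries the feedback from receptor protein folding, had 5806 and 5869 footprints at 0.64 [0.59, 0.69] and RNA at 0.39, while Eif2ak3, the kinase PERK upstream of it, had 213 and 79 at -0.81 [-1.20, -0.43] and RNA at -0.08. The kinase and the factor lay on opposite sides of 0. Beside 6.49% higher and 10.8% lower among all genes, axon guidance genes had 2 of 51 higher and 7 lower, with a median of 0.06. Growth cone genes had 1 of 45 each way with a median of 0.13. With 100 or more footprints the shares of all genes were 2.44% and 5.03%. Sema7a, a membrane semaphorin of olfactory axons, had 1567 and 1596 footprints at 0.65 and RNA at 0.62. Nectin3, an adhesion molecule, had 223 and 28 footprints at -2.37 [-2.99, -1.80] and RNA at -0.67.

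**Figure D3:**
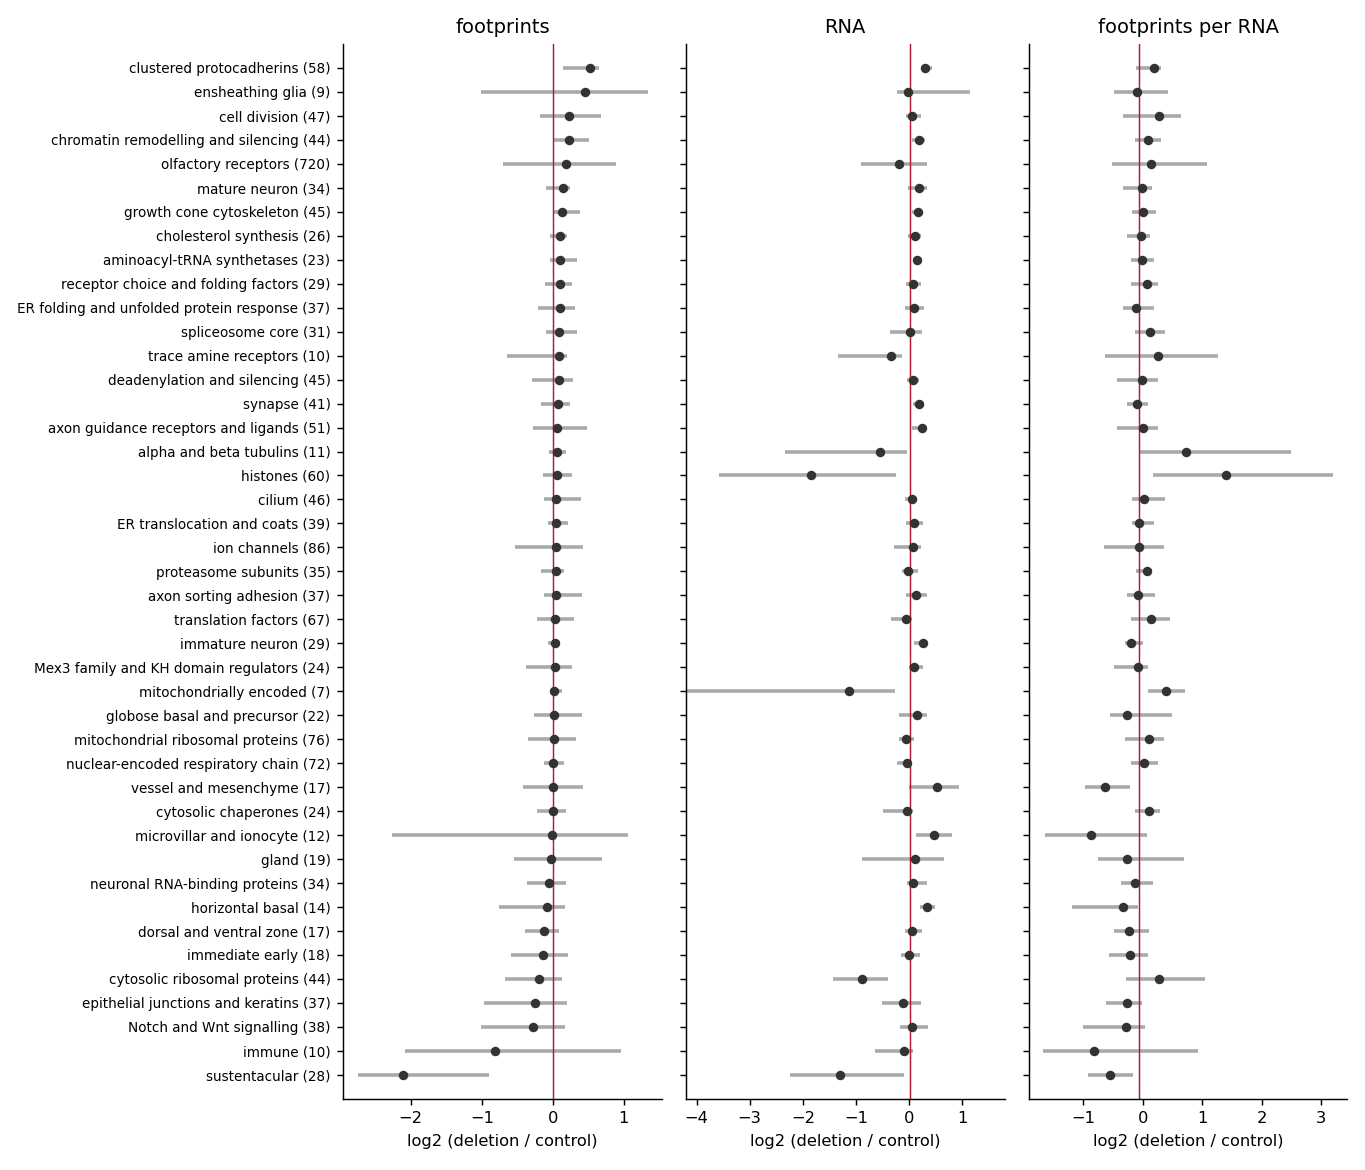
Median log2 ratio (point) and middle 50% (bar) of each gene list with 5 or more members measured in footprints, for footprints, RNA and footprints per RNA; the number of members measured in footprints is in brackets and the red line is the median of all genes. The RNA bar of mitochondrially encoded genes runs beyond the axis. Sustentacular genes lie lowest in footprints, and histones, tubulins and mitochondrially encoded genes lie low in RNA alone.

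Long coding sequences had higher footprint ratios than short ones. Among genes with 200 or more footprints, outside those apart in control RNA, the median was 0.008 for 387 coding sequences under 500 bases, 0.01 for 1252 from 500, -0.04 for 2349 from 1000 and 0.05 for 1782 from 2000 bases. From 4000 bases it was 0.30 over 571 genes, of which 448 were above 0, and from 8000 bases 0.57 over 114 genes, of which 99 were above 0. RNA medians of the last 2 bins were 0.12 and 0.21 and those of footprints per RNA 0.14 and 0.33, so the difference was larger in footprints. With 1000 or more footprints the footprint medians of those bins were 0.35 over 184 genes and 0.68 over 42. In the OMP-GFP pair the genes of those bins with 200 or more Ngn1-GFP footprints had footprint medians of 0.07 and 0.06. A difference between the pairs was not tested.

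Well-counted genes gave a similar picture. Of 3254 genes with 200 or more footprints in each column, outside the cell type lists, 14 were higher and 10 lower, and 11 of the 14 and 0 of the 10 had coding sequences of 4000 bases or more, as had 438 of the 3254. These genes were picked after their values were seen. Dync1h1, the heavy chain of cytoplasmic dynein, had 1133 and 1557 footprints at 1.08 [0.97, 1.19] and RNA at 0.53. Fry, a scaffold of cell polarity, had 307 and 495 at 1.31 [1.10, 1.52] and RNA at 0.52. Nbas, a tethering factor of Golgi to ER transport, had 299 and 432 at 1.15 [0.94, 1.37] and RNA at 0.13, and Rif1, a regulator of replication timing, had 315 and 415 at 1.02 and RNA at -0.19. Postn, also among the 14, had RNA at 1.21 beside footprints at 1.15. Scaled by library size alone, 9 of the 14 were under 2-fold, and Dync1h1, Fry, Nbas, Postn and Tenm4 were not.

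The 10 lower ones were Gstm1, Prdx6, Aqp3, Sec14l2, Aldh2, Clu, Ephx1, Cd36, Txnip and Ugdh. Gstm1, a glutathione transferase, had 2621 and 223 footprints at -2.93 [-3.14, -2.73] and RNA at -2.33, and Aqp3, a water and glycerol channel, had 1660 and 268 at -2.01 [-2.20, -1.82] and RNA at -0.88. Txnip, the thioredoxin-binding protein, differed in that its RNA was level, with 680 and 201 footprints at -1.14 [-1.37, -0.91] and RNA at -0.04. In the chromatin list, 33 of 44 genes were above 0 with a median of 0.22, and without coding sequences of 4000 bases or more the median was 0.11. Clustered protocadherins, the surface identity proteins of neurons, had a median of 0.52 with and without them. Their median coding length was 2793 bases, below that cut, so the unchanged value does not test coding length.

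**Figure D4:**
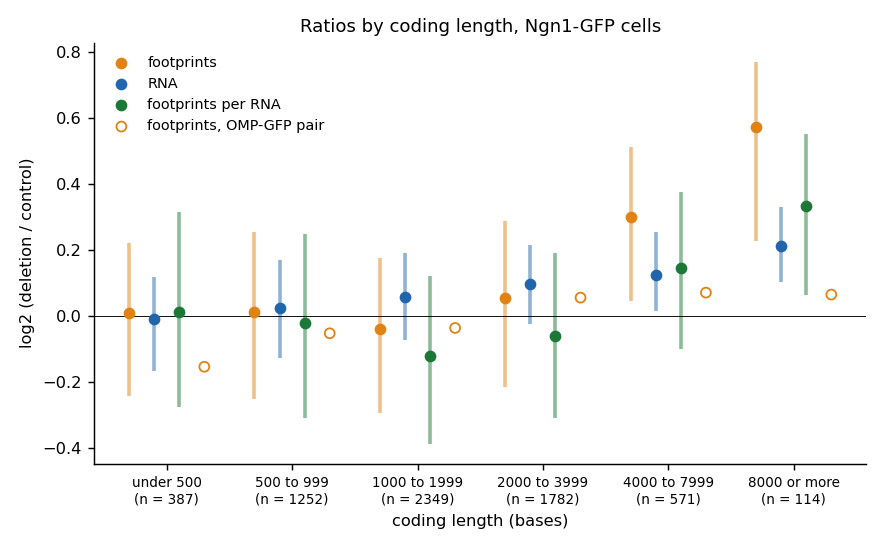
Median log2 ratio (filled points) and middle 50% (bars) of footprints, RNA and footprints per RNA by coding length, for genes with 200 or more footprints in the Ngn1-GFP pair; open points are footprint medians of the same genes in the OMP-GFP pair. Footprint medians are 0.30 and 0.57 in the last 2 bins.

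A group of genes stood apart in the control RNA column. There 375 genes were at least 8-fold above each of the other 3 RNA columns, and they held 4.87% of control RNA against 0.100% of deletion RNA. The same measure found 10, 1 and 5 genes in the other columns. Of the 375, 256 had no footprint in any column and 147 had no RNA count in the other 3. The 40 with 20 or more footprints had a median footprint ratio of -0.17, and 34 of them were called higher per RNA. Without the 375 genes, 728 of 16189 (4.5%) were higher and 1596 (9.86%) lower in RNA, 973 of 12493 (7.79%) were higher per RNA, and 811 of 12514 (6.48%) were higher in footprints.

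Tuba1b, an alpha tubulin, was among them, with 199783 RNA counts in the control and a ratio of -9.04. Outside the 375, Tuba1a, the alpha tubulin of young neurons, had 334049 and 36776 RNA counts at -1.55 but 4337 and 2936 footprints at 0.06 [-0.01, 0.13]. Ubb, a polyubiquitin gene, had 339268 and 18571 RNA counts at -2.56 and 937 and 605 footprints at -0.01 [-0.16, 0.14]. Near-identical copies exist for tubulin, ubiquitin and histone genes, and counts of single copies are uncertain. Histones had RNA medians of -1.84 over 74 genes and footprint medians of 0.06 over 60, and cytosolic ribosomal protein genes -0.89 over 82 and -0.19 over 44. The high ratios per RNA of histones thus come with level footprints and low RNA ratios.

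The genes with the most footprints differed by less than 2-fold. Gfy, whose promoter is shown, had 105622 and 78399 footprints at 0.19 [0.18, 0.21] and RNA at 0.89, so its footprints per RNA were at -0.70 [-0.72, -0.68]. Fstl5 of the follistatin-like family was at 0.42 with RNA at 0.18, and Ncam1, the neural cell adhesion molecule, at 0.54 with 0.78. App and Aplp2, the amyloid precursor and its relative, were at 0.22 and 0.35 with RNA at 0.52 and 0.50. The microtubule protein gene Map1b was highest of the 10, at 0.73 with RNA at 0.57. Gfy had the lowest ratio per RNA among these 10.

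Of 720 measured olfactory receptor genes 147 were higher and 120 lower in footprints, beside 6.49% and 10.8% of all genes. Most receptors had few footprints, where calls are frequent in all genes. Between 20 and 50 footprints 24.1% of 299 receptors were higher and 22.7% lower, against 18.6% and 26.8% of all genes in that bin. Between 50 and 100 footprints the shares were 19.1% and 14.1% of 220 receptors against 12.8% and 21.3%. Between 100 and 200 footprints 27 of 150 receptors were higher and 16 lower, against 6.19% and 11.4% of genes. Higher calls thus took a larger share of receptors than of all genes in these bins. Lower calls took a smaller share below 100 footprints and a close one, 10.7% of receptors, between 100 and 200. Between 200 and 500 footprints 13.3% of 45 receptors were higher and 6.67% lower, against 1.69% and 4.49% of genes. Of 5 receptors between 500 and 1000 footprints 0 were higher and 1 lower. These differences were not tested. The summed receptor share was 0.833% [0.824, 0.841] of footprints in the control and 0.903% [0.893, 0.914] in the deletion column, and 0.433% [0.431, 0.434] and 0.400% [0.398, 0.402] of RNA, with exact binomial intervals. The sum thus lay higher in footprints and lower in RNA. Receptors with near copies are uncertain as single genes.

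Olfr1507, also known as MOR28, had the most footprints of the receptors, with 693 in the control and 108 in the deletion column. Its ratios were -2.06 in footprints and -2.03 in RNA, with -2.18 and -2.23 in the OMP-GFP pair. Olfr1260 had 297 and 48 footprints with -2.01 and -1.63, and -2.24 and -1.76 in the OMP-GFP pair. In the other direction Olfr877 had 54 and 120 footprints with 1.77 and 1.02, and 1.22 and 1.04 in the OMP-GFP pair. These receptors were picked among those called the same way in both Ngn1-GFP assays. Only their OMP-GFP ratios could therefore fall on the other side, and these lay on the same side.

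The receptors called in both assays were then read in the OMP-GFP pair. Of the 40 lower in footprints and RNA, 31 of 33 measured in OMP-GFP footprints and 35 of 39 measured in OMP-GFP RNA were below 0 there, with medians of -1.36 and -1.21. Of the 17 higher ones, 11 of 12 and 12 of 15 were above 0, with medians of 0.63 and 0.91. For the 200 receptors with 100 or more footprints, Pearson's r between the pairs was 0.36 in footprints and 0.58 in RNA, Spearman's rho was 0.33 and 0.46, and 121 and 135 receptors had the same sign. For other genes with as many footprints r was 0.0004 over 8280 genes and -0.14 over 8494, rho was 0.08 and 0.16, and 4471 and 4712 had the same sign. For the RNA of other genes r and rho thus differ in sign. The pairs share no column, and the sources used here do not say whether they share mice.

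**Figure D5:**
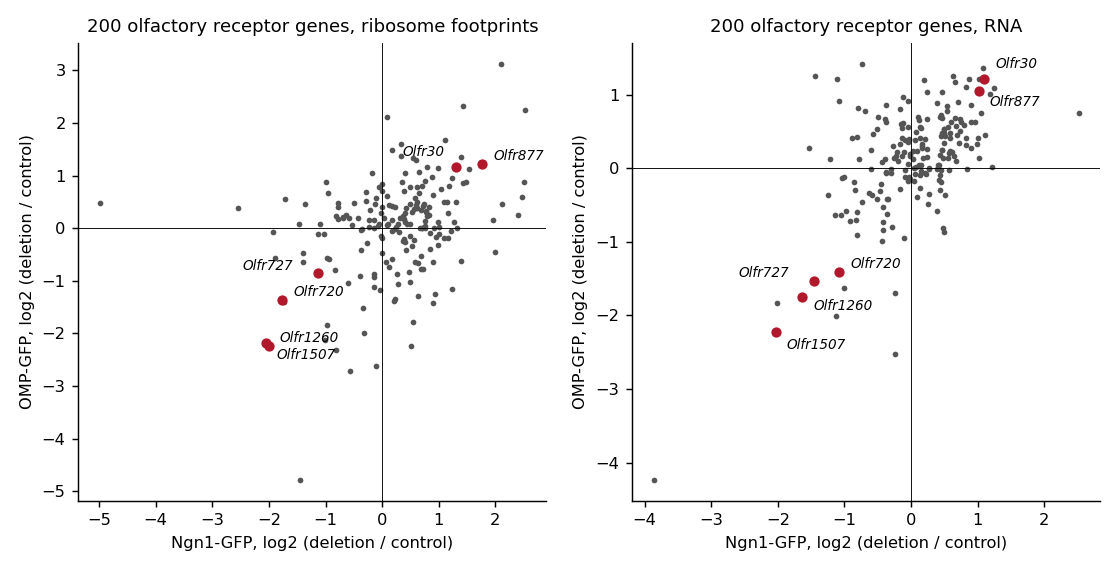
Each point is 1 of 200 olfactory receptor genes with 100 or more footprints in the Ngn1-GFP pair, placed by its log2 ratio of deletion over control in Ngn1-GFP (x) and OMP-GFP (y) cells, for footprints (left) and RNA (right). The 4 labelled receptors at the lower left are below 0 and the 2 at the upper right above 0 in both pairs and both assays. They were picked among receptors called the same way in both Ngn1-GFP assays, so only their OMP-GFP values could differ in side.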

How the data were processed

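Footprint counts and RNA counts over coding sequences are the authors' values in the deposited table, per the file headers, beside coding length, a translational efficiency ratio, footprint RPKM and RNA TPM. RPKM and TPM, deposited by the authors, were not tested. FastQC, cutadapt, STAR and mm10 are named in the submitters' processing notes, without versions or settings. Cells were freed with papain and libraries made with a SMARTer stranded low-input kit, per the labels' protocols.

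Counts were scaled by TMM over the 4 columns of an assay (edgeR 4.0.16, R 4.3.3). Ratios and exact conditional binomial intervals came from Python 3.11.15, numpy 2.4.6, pandas 2.3.3, scipy 1.17.1 and matplotlib 3.10.9, and the interval of footprints per RNA is approximate. Scripts were tested on simulated data. With 3 counts a column reaches 0.609 (control) and 0.938 (deletion) scaled footprint CPM. The 24 value columns matched the 4 groups; edgeR's model over libraries could not be fitted.

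Members and the 43 gene lists were chosen with earlier results of these data known. Named genes are Mex3a, the 10 with most footprints, those with interval bounds farthest from 0 for each measure, pairing and list, and the receptors chosen by bound. Well-counted genes, the lineage and Y-linked genes, Acta2, the receptors called in both assays and the promoters shown were picked after values were seen. Predicted, clone and pseudogene names were counted and left unnamed. Results on some genes are not reported here.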

Additional observations from a re-analysis of the deposited data

Results flagged for a closer look

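The sustentacular list had opposite directions in the 2 populations. Its footprint median was -2.11 in the Ngn1-GFP pair and 1.28 in the OMP-GFP pair, with 1 column per group in each. The difference between the pairs was not tested.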

How the results depend on the processing

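No paired analysis was possible because each group has 1 column per assay, so neither a replicate block nor leaving out a replicate could be run. Alternatives were other scalings, count minimums, zero settings, no interval, the authors' efficiency values and, chosen after seeing the data, edgeR's filter, no coding sequences of 4000 bases or more and no cell type list members. At 50 or more counts, 461 and 852 genes were higher and lower in footprints and 603 and 814 per RNA; at 100 or more, 213 and 439, and 306 and 434, with 368 higher in RNA. Pearson's r between assays was 0.217 at 10, 0.298 at 50 and 0.342 at 100 or more counts, 0.282 without the genes apart and 0.245 without cell type list members. The log2 ratio of the summed RNA receptor share was -0.176 outside mitochondrial, ribosomal and histone genes. By library size alone, which shifted the median per RNA by -0.12, the medians per RNA of mitochondrial ribosomal proteins and chaperones turned to -0.0197 and -0.0174. Glial footprints had -0.351 at 50 and -1.02 at 100 or more counts, and glia per RNA 0.0432 without long coding sequences. At 100 or more counts the medians per RNA were -0.212 for trace amine receptors and -0.018 for ribosomal proteins, and Muc5ac per RNA was -0.275 with 0 set to 0.5. The cause was not tested. Of the other list medians 1213 kept their value within the limits set and 25 moved. Of named ratios 5198 kept their side of 2-fold. By library size alone 9 of the 14 well-counted genes with higher footprints were under 2-fold and 0 of the 10 with lower ones.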
